A study of Rattus norvegicus with 18 samples.

Results

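Umod, Slc12a1, Egf, Slc12a3 and Pvalb mark adjoining stretches of the nephron, the thick ascending limb of the loop of Henle and the tubule that follows it, and each was represented by 1 cDNA clone among the 2304 clones of a spotted rat array. They were chosen by gene symbol, as 5 of 1483 genes named on the platform. The rule used no measured value, but the members were chosen with earlier results of these data known. Umod, Slc12a1 and Egf stand for the thick ascending limb, and Slc12a3 and Pvalb for the distal convoluted tubule. The study compared total RNA of whole kidney from 6 sham-operated rats with that from 6 rats 35 days after 52 min of renal ischemia and reperfusion, called ARF rats here for the acute renal failure that such injury causes. The labels name 6 pairs of rats, A to F, each of 1 sham and 1 ARF rat, and each pair was hybridised on 2 arrays with Cy3 and Cy5 exchanged. A further 6 arrays, R1 to R6, set sham rats against sham rats without a dye exchange, with sham rat A, A, B, B, C and D in channel 1 and sham rat F, E, F, D, F and E in channel 2. The labels give no strain, sex or age, and every rat of both groups had gone through surgery.

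The thick ascending limb reabsorbs salt without water through the apical cotransporter NKCC2, the product of Slc12a1, and so drives urine concentration. Its cells also make uromodulin, the product of Umod and the most abundant protein of normal urine, and the membrane-bound precursor of epidermal growth factor, the product of Egf, which is made in the early distal tubule as well. The distal convoluted tubule follows, where NCC, the thiazide-sensitive product of Slc12a3, takes up sodium chloride, and where the calcium-binding protein parvalbumin, the product of Pvalb, marks the early part. NKCC2 and NCC belong to the same family of cation-chloride cotransporters. Clone sequences were not used here, so cross-hybridisation between the Slc12a1 and Slc12a3 clones was not tested.

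The gene starts were read from RefSeq's table for GRCr8, in which all 5 genes were found. The 250 bases before the start of the 3 thick limb genes and of Slc12a3 are given because the results turn on these 4 genes. The former are given for ARF against sham and Slc12a3 for its spread over arrays R1 to R6. They differ in base composition from 40.8% G and C for Umod to 59.2% for Slc12a3. Each is written 5′ to 3′ on the gene's strand. Capitals mark exact matches on either strand to TATAAA (the TATA box), CCAAT (the CCAAT box) or GTTAAT (part of the HNF1 site), and no match overlaps another.
Egf, chr2:220976298-220976547, minus strand: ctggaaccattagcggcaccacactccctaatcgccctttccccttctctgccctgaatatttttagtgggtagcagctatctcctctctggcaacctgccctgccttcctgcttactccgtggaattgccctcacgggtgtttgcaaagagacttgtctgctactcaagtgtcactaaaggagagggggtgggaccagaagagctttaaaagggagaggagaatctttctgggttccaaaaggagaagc
Umod, chr1:183261017-183261266, minus strand: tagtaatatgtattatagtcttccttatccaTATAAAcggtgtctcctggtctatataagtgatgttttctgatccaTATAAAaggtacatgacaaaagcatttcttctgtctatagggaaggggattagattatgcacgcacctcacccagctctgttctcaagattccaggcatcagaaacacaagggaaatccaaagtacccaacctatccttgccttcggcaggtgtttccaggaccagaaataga
Slc12a1, chr3:132859409-132859658, plus strand: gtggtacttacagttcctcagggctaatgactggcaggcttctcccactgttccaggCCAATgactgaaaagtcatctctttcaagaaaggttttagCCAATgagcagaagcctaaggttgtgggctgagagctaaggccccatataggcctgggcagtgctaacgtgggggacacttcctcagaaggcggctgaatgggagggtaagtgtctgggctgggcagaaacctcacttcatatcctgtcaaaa
Slc12a3, chr19:10675051-10675300, minus strand: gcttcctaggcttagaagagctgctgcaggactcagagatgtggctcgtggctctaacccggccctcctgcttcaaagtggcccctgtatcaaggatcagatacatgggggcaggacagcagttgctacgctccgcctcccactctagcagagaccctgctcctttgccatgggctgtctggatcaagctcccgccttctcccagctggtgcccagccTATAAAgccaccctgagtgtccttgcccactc
TATAAA was found 2 times before Umod and 1 time before Slc12a3, where it lies 32 to 27 bases before the start, and CCAAT 2 times before Slc12a1. GTTAAT was in none of these windows, and Egf and Pvalb held none of the 3 motifs. Of all 33469 promoter windows of 250 bases in the table, 12.9% held TATAAA, 34% CCAAT and 6.45% GTTAAT. These matches describe the letters of each window and were not tested as binding sites. Slc12a1 has a further annotated start upstream, whose window held the same 2 matches to CCAAT.

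The values are normalized log ratios of the channels of an array, whose log base the labels do not give. A value below 0 is read here as lower RNA in the ARF rat. The ARF rat is in channel 2 of the arrays with sham in Cy3, and ratios are by custom channel 2 over channel 1. On the arrays with sham in Cy5 the same reading needs channel 1 over channel 2, so the custom is weak ground for the direction. The labels do not state the direction, and with the opposite convention every sign turns. Both dye orientations correlated above 0 over clones in every pair (r from 0.196 to 0.58), so the deposited values of a pair are read as running the same way. A dye bias could also give such r, were every array deposited as channel 2 over channel 1. The pair mean would then hold the dye effect, and the difference of the 2 arrays the ARF effect. Over 668 clones that difference, divided by 2, correlated with the mean of arrays R1 to R6 at r = 0.499. The 2 readings were not tested against each other. In whole kidney RNA, fewer cells of a type and less RNA per cell cannot be told apart. Since only ratios were deposited, the level of a marker could not be used to check the labelled tissue. Umod, Slc12a1, Egf and Pvalb had values on 12 of 12 ARF-sham arrays and Slc12a3 on 11.

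The question of the main comparison was which kidney genes still differ from sham weeks after the injury. Egf was lower in ARF kidneys in every pair. Its pair values were -0.34 in pair A, -0.44 in B, -0.20 in C, -0.21 in D, -0.25 in E and -0.60 in F, each the mean of 2 arrays. On the single arrays Egf was below 0 on 12 of 12, between -0.67 and -0.047, and only 1.17% of the 600 clones with values on all 12 were below 0 on each. Pair F was lowest and pairs C, D and E lay closest to 0. The mean was -0.34 ± 0.16 (SD, n = 6 pairs), with a standard error of 0.066 and a 95% interval from -0.49 to -0.19. It passed the threshold (limma, Benjamini-Hochberg adjusted p = 0.0482 over 947 clones), as did 0.950% of the clones tested. That mean corresponds to 79% of the sham level if the logarithm is to base 2, to 71.2% for natural logarithms and to 45.8% for base 10. Were the ratios sham over ARF, it would be 127%, 140% and 219%. The call was close to its threshold: with pair A left out the adjusted p was 0.086, and with B, E or F left out 0.14, 0.20 and 0.31, and it passed in 7 of 14 other settings (adjusted p from 0.0055 to 0.49).

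Slc12a1, the sodium-potassium-chloride cotransporter of the thick limb, had pair values of -0.039 in pair A, -0.18 in B, -0.59 in C, -0.45 in D, -0.16 in E and -0.47 in F. All were below 0, and pairs C, D and F lay well under the other pairs. The mean was -0.31 ± 0.22 (n = 6), with a 95% interval from -0.49 to -0.14, and it did not pass (limma adjusted p = 0.093). Umod had -0.21, -0.069, -0.30, -0.15, -0.24 and -0.45 in pairs A to F, all below 0, with pair F lowest and pair B nearest 0. Its mean was -0.24 ± 0.13 (n = 6, 95% interval from -0.37 to -0.10), which did not pass either (limma adjusted p = 0.098). With all 12 arrays and the pair as a replicate block, in which the 2 arrays of a pair count in part as separate replicates, both passed (adjusted p = 0.030 for Slc12a1 and 0.043 for Umod), and neither did once the fit also had a dye term (0.057 and 0.10). Values below 0 in 6 of 6 pairs, as in all 3 thick limb genes, were seen in 5.17% of the 600 clones measured in 6 pairs. The exact two-sided sign-flip permutation p over the pairs was 0.031 for each of the 3, the smallest that 6 pairs can give, and it does not pass after adjustment over all clones (0.49).

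Neither distal convoluted tubule gene passed, and the pair values of both lay on either side of 0. Slc12a3, the sodium chloride cotransporter, had -0.21 in pair A, 0.38 in C, 0.17 in D, 0.37 in E and -0.085 in F, and pair B had a value on 1 array only and is left out. Pairs C, D and E were above 0 and pairs A and F below, around a mean of 0.12 ± 0.27 (n = 5, 95% interval from -0.096 to 0.34, limma adjusted p = 0.57). On the arrays with sham in Cy3 alone, its mean was -0.084 (n = 6), so the sign of the mean rests on the sham-in-Cy5 arrays. Pvalb had 0.054, -0.036, 0.19, 0.086, 0.17 and 0.28 in pairs A to F, above 0 in 5 of 6 pairs and highest in pair F. Its mean was 0.12 ± 0.11 (n = 6, 95% interval from -0.0057 to 0.25, limma adjusted p = 0.36). At least 5 of 6 pairs above 0 was seen in 16.8% of the clones with 6 pairs. The intervals of both genes include 0 and also reach differences of 0.25 or more.

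**Figure D1:**
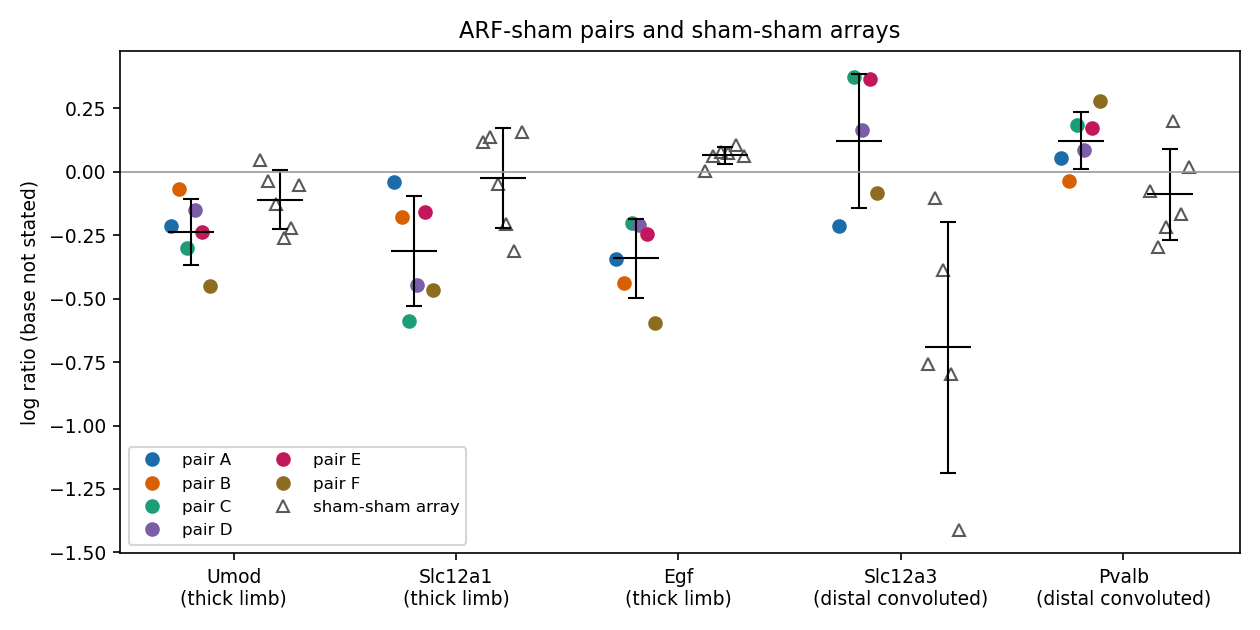
Log ratios of the 5 genes (y axis, base not stated). Filled circles are ARF-sham pairs, each the mean of 2 dye-exchanged arrays, triangles are sham-sham arrays, and bars give mean ± SD. All 6 pairs lie below 0 for Umod, Slc12a1 and Egf, the sham-sham arrays of Egf lie between 0.0041 and 0.11, and those of Slc12a3 reach -1.41.

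Within each pair the mean of the thick limb genes lay below the mean of the distal convoluted tubule genes. The mean over Umod, Slc12a1 and Egf was -0.20, -0.23, -0.36, -0.27, -0.21 and -0.50 in pairs A to F. The mean over Slc12a3 and Pvalb was -0.080, -0.036, 0.28, 0.13, 0.27 and 0.097, where pair B rests on Pvalb alone. The difference, thick limb minus distal convoluted tubule, was smallest in pair A (-0.12) and B (-0.19) and largest in pair C (-0.64) and F (-0.60), with -0.40 in D and -0.48 in E. It averaged -0.41 ± 0.21 (n = 6 pairs) and was below 0 in 6 of 6 pairs. With Egf left out, since both segments make it, the mean difference was -0.38, again below 0 in 6 of 6 pairs. Taken by dye orientation, it was -0.34 ± 0.15 with sham in Cy3, below 0 in 6 of 6, and -0.43 ± 0.37 with sham in Cy5, below 0 in 5 of 6, pair B being the exception at 0.090. No p is given for these segment means, because the genes were grouped with earlier results of these data known. Over the wider gene lists given below, the thick limb median lay above the distal median in pairs A and B.

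Gene by gene, Egf minus Slc12a3 was below 0 in 5 of 5 pairs (mean -0.44 ± 0.20) and Egf minus Pvalb in 6 of 6 (-0.46 ± 0.21). Umod minus Slc12a3 was below 0 in 4 of 5 pairs (-0.39 ± 0.27), with the genes nearly equal in pair A (0.0021), and Umod minus Pvalb in 6 of 6 (-0.36 ± 0.24). The cotransporters differed less evenly. Slc12a1 minus Slc12a3 had a mean of -0.46 ± 0.42 (n = 5) and was below 0 in 4 of 5 pairs, from -0.96 in the lowest pair to 0.17 in pair A, where Slc12a1 was the higher ratio. Slc12a1 minus Pvalb was below 0 in 6 of 6 pairs (-0.44 ± 0.29). These differences are of pair values and do not tell which gene changed. They were not tested, so unequal change of the genes is not established by them. On the sham-sham arrays the mean differences from Slc12a3 were larger in size than in the pairs, and those from Pvalb smaller.

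**Figure D2:**
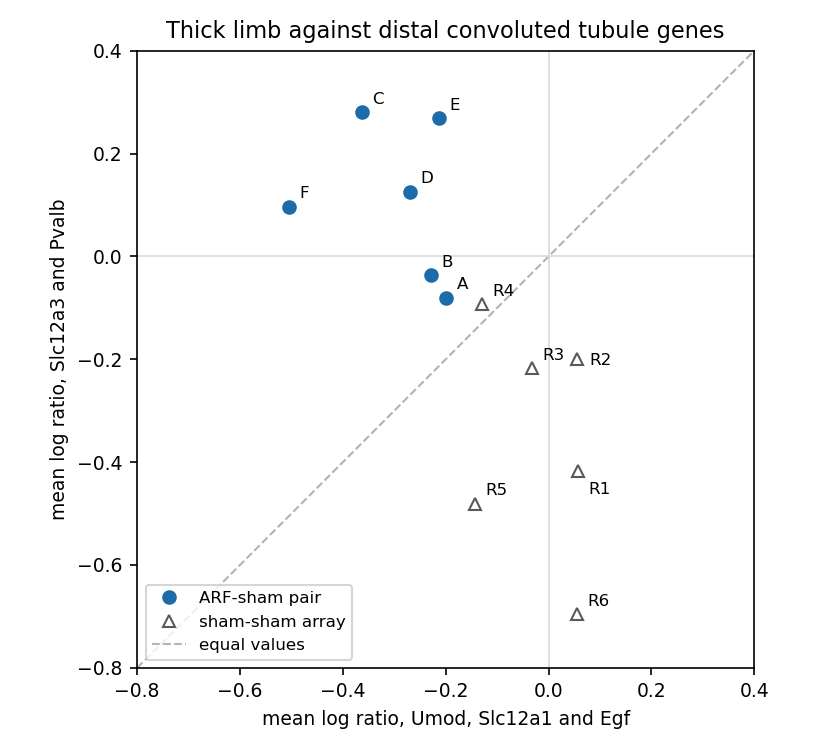
Mean log ratio of Slc12a3 and Pvalb (y axis) against that of Umod, Slc12a1 and Egf (x axis) for each ARF-sham pair (circles, A to F) and sham-sham array (triangles, R1 to R6). The 6 pairs lie left of 0 and above the line of equal values, and 5 of 6 sham-sham arrays lie below that line; pair B and array R3 rest on Pvalb alone for the y axis.

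The dye orientations show how much of each value followed the dye. The dye effect is the difference of the arrays of a pair, sham in Cy3 minus sham in Cy5, divided by 2. It cancels in the pair mean if both arrays run the same way, as they are read here. For Egf it was 0.094 ± 0.068 (n = 6, limma adjusted p = 0.078), above 0 in 5 of 6 pairs, and it passed without pair B (0.12, adjusted p = 0.0496). Egf thus lay further below 0 with sham in Cy5 (mean -0.43) than with sham in Cy3 (mean -0.25). Slc12a3 had a dye effect of -0.18 ± 0.13 with all 5 pairs below 0, and it passed (limma adjusted p = 0.042), as did 16.1% of clones. It did not pass with arrays centred on their medians (0.061) or without pair C, D or E (0.078, 0.13 and 0.11). Slc12a1 (-0.079 ± 0.13), Pvalb (0.081 ± 0.13) and Umod (0.020 ± 0.13) had dye effects that did not pass (adjusted p = 0.25, 0.23 and 0.78). In pairs A and B Slc12a1 changed sign with the dye, at -0.23 and -0.40 with sham in Cy3 and 0.15 and 0.048 with sham in Cy5. In these same pairs Pvalb changed sign too, from 0.30 and 0.16 to -0.20 and -0.23. In pair D Umod went from 0.042 with sham in Cy3 to -0.34 with sham in Cy5, and Slc12a3 from -0.12 to 0.46. Umod was thus below 0 on 11 of 12 arrays.

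**Figure D3:**
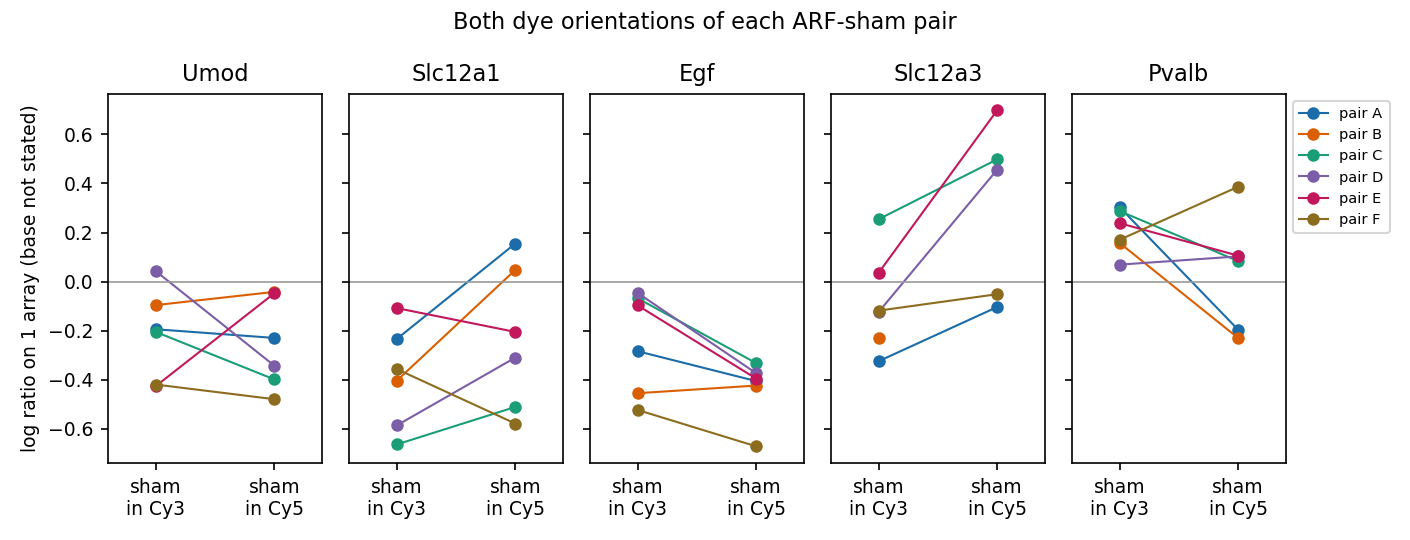
Log ratio on each ARF-sham array (y axis, base not stated) by dye orientation (x axis), with lines joining the 2 arrays of a pair. Egf is below 0 on all 12 arrays, while Slc12a3 is higher with sham in Cy5 in all 5 pairs with both arrays.

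The sham-sham arrays gave the background without an injury. Their columns were read with blocks of rows exchanged, since in the deposited order at most 1 value fell on any of the 5 clones. Egf had 0.0041, 0.063, 0.079, 0.076, 0.11 and 0.061 on R1 to R6. These values are narrow: their SD of 0.034 lies at the 0.583 percentile of the SDs of the 857 clones measured on at least 4 sham-sham arrays, where the median SD was 0.16. Every pair value of Egf was below every sham-sham value, which held for 2.10% of 668 clones. This comparison is uneven, since a pair value is the mean of 2 dye-exchanged arrays and a sham-sham value is 1 array. The sham-sham mean of Egf (0.065) has the sign of its dye effect (0.094). On single arrays, each of the 6 Egf values with sham in Cy3 was also below every sham-sham value, as for 1.06% of 754 clones. The sign of a sham-sham value depends on which sham rat was in which channel. By size, every pair value of Egf exceeded the 0.11 on R5. The sham-in-Cy3 values of pairs C, D and E (-0.068, -0.047 and -0.097) did not. For Slc12a1 3 of 6 pairs lay below the lowest sham-sham array, and for Umod 2 of 6. Between sham rats Umod ran from -0.26 to 0.047 (mean -0.11 ± 0.12), so its lowest sham-sham values overlap the pairs. Slc12a1 ranged from -0.31 to 0.16 (mean -0.025 ± 0.20). Its lowest value, on R5, joins spots of -0.65 and 0.020, the widest disagreement between duplicate spots among the 5 genes, and without R5 the mean was 0.033.

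Slc12a3 varied most over the sham-sham arrays, on which rat, dye and array error cannot be told apart for this gene. It had -0.76 on R1, -0.10 on R2, -0.39 on R4, -0.80 on R5 and -1.41 on R6, with no value on R3, and the values on R4 and R5 rest on 1 spot each. A sign here depends on the channel each sham rat was given. The SD of 0.49 over these arrays lies at the 99.3 percentile of all clones, against an SD of 0.27 over the ARF-sham pairs at the 84.5 percentile. The size on 4 of the 5 sham-sham arrays exceeded that in every ARF-sham pair. Both comparisons are uneven, since a pair value is the mean of 2 arrays in which the dye effect cancels and a sham-sham value is 1 array. On single ARF-sham arrays Slc12a3 reached 0.70 (pair E, sham in Cy5), which only R1, R5 and R6 exceeded in size. Its SD over the single arrays with sham in Cy3 was 0.21 (n = 6). Its mean of -0.69 differed from 0 (limma adjusted p = 0.0386, as for 2.80% of clones), in the same direction as its dye effect of -0.18 and larger. These arrays share rats. The adjusted p was 0.073 without R4, 0.105 without R5 and 0.053 without R3, which holds no Slc12a3 value but alters the other clones of the fit. Pvalb ranged from -0.30 to 0.20 (mean -0.089 ± 0.18) and did not pass (adjusted p = 0.46). On these arrays the thick limb mean minus the distal convoluted tubule mean was 0.47, 0.25, 0.18, -0.037, 0.34 and 0.75 for R1 to R6, opposite in sign to the pairs on 5 of 6 arrays. That sign also depends on which sham rat was in which channel. In size these differences overlap those of the pairs (-0.64 to -0.12), and R6 exceeded every pair. Set against Pvalb, the mean sham-sham difference was -0.020 for Umod, 0.064 for Slc12a1 and 0.15 for Egf, and set against Slc12a3 it was 0.59, 0.67 and 0.75.

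The arrays with sham in Cy3 and the sham-sham arrays both hold a sham rat in Cy3, so a constant dye effect cancels in their difference. Egf averaged -0.25 on the former and 0.065 on the latter, a difference of -0.31 (standard error 0.094, 95% interval from -0.51 to -0.11). For Slc12a1 the difference was -0.37 (0.11) and for Umod -0.11 (0.095). It was 0.61 (0.18) for Slc12a3 and 0.29 (0.092) for Pvalb. Pvalb was above 0 on 6 of 6 sham-in-Cy3 arrays and below 0 on 4 of 6 sham-sham arrays. None of the 5 passed the threshold, with limma adjusted p of 0.099 for Slc12a1, Egf and Slc12a3, 0.10 for Pvalb and 0.56 for Umod, although 2.39% of 754 clones did. Without array R2 Slc12a3 passed (0.75, adjusted p = 0.039). Sham rats are shared between these arrays, and the test treats them as independent.

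Over the 6 pairs the members did not move as 1 group. Umod and Pvalb ran against each other (Pearson r = -0.94, n = 6 pairs), so that pair F was the lowest in Umod and the highest in Pvalb and pair B nearest 0 in Umod and lowest in Pvalb. Egf and Slc12a1 had r = -0.095 although both were below 0 in every pair, and Umod had r = 0.48 with Slc12a1 and 0.39 with Egf. With 6 points each r is imprecise. Egf and Slc12a3 had r = 0.68 over 5 pairs. All these points share sham and ARF rats of 1 pair per point, and they are given as descriptions. Among 419 named clones measured in all 6 pairs, those most like Umod were Slc15a2, a peptide transporter (r = 0.95), Mgst1, a glutathione transferase (0.92), and Plau, the urokinase protease (0.91). Most like Slc12a1 were Tf, transferrin (0.90), Sod2, the mitochondrial superoxide dismutase (0.90), and Prkar1a, a regulatory subunit of protein kinase A (0.89). Most like Egf were the proteasome subunit Psmd4 (0.92), the enoyl-CoA isomerase Eci1 (0.92) and the glucose-6-phosphate transporter Slc37a4 (0.88). Nearest Pvalb were the protease Capn1 (0.96), the lipid kinase Pi4kb (0.83) and the GTPase Arf5 (0.82). Nearest Slc12a3, over 5 pairs and 420 clones, were the nuclease Dnase1 and the retinol carrier Rbp4 (0.99 each) and Idh3g, a mitochondrial dehydrogenase subunit (0.97). Slc12a3, with 5 pairs, was not among the clones compared, and no other member was among the 3 clones nearest another. Over so few pairs the highest of many r values is large for most genes, so these ranks say little about likeness.

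Of 32 genes, members included, that were listed for the thick limb and macula densa, 7 were on the array and 6 were tested. In this list 1 passed (Egf, lower, as for 0.634% of all clones tested) and 6 of 6 means were below 0, with a median of -0.18 against 0.015 over the 947 clones, of which 435 were below 0. Besides the members, Pou3f3, a transcription factor of the loop, had -0.13 ± 0.10 (n = 4, adjusted p = 0.46), and the others had -0.11 and -0.019. The list for the distal convoluted and connecting tubule named 28 genes, of which 9 were on the array and 6 tested. None of these 6 passed (limma, with 2 at an unadjusted p under 0.05) and 3 of 6 means were below 0, with a median of 0.035. Its extremes were Klk1b3, a tissue kallikrein, at -0.44 ± 0.34 (n = 6, adjusted p = 0.093), and Sgk1, the aldosterone-induced kinase that stimulates sodium transport, at 0.42 ± 0.35 (n = 5, adjusted p = 0.13). Per pair, the thick limb list median was -0.157, -0.169, -0.202, -0.150, -0.196 and -0.314 in A to F. The distal list median was -0.196, -0.196, 0.062, 0.066, 0.12 and -0.0044. The thick limb median was thus the lower in pairs C to F and the higher in pairs A and B. The sodium pump, which drives transport in both segments, was measured through Atp1b1 at -0.17 ± 0.30 and Fxyd2 at -0.066 ± 0.12 (each n = 6, adjusted p = 0.48 and 0.63), and Fxyd2 is also 1 of the genes of the distal list.

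**Figure D4:**
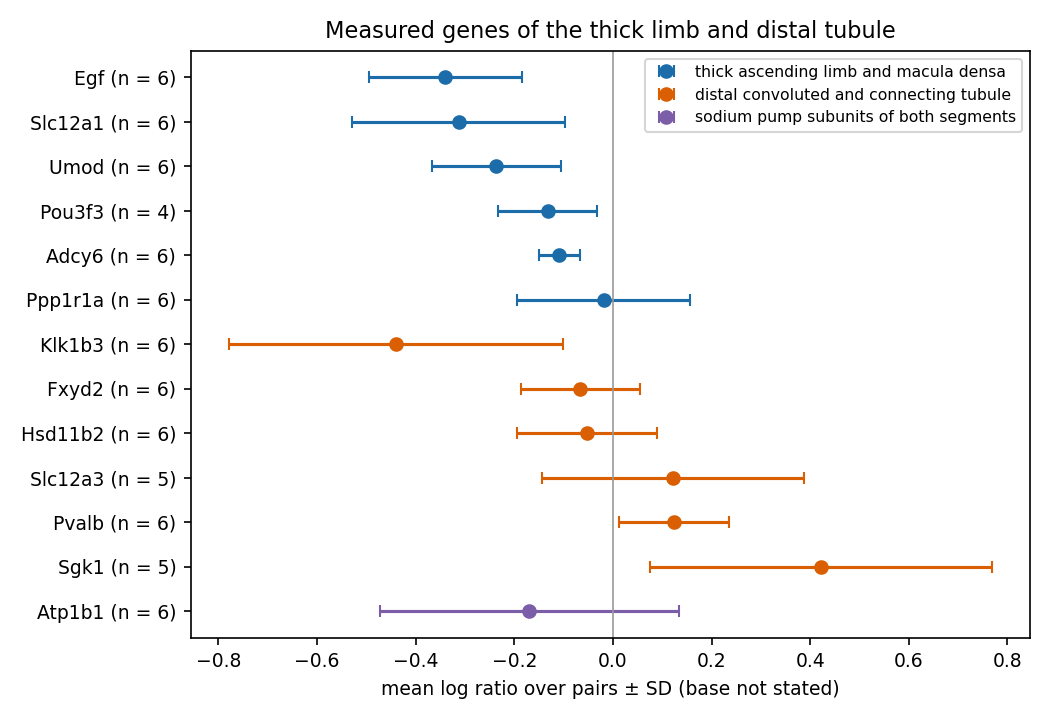
Mean log ratio over ARF-sham pairs (x axis, base not stated) for the tested genes of the listed segments, with bars of 1 SD and n in pairs. The 6 thick limb genes have means from -0.34 to -0.019, and the 6 distal genes from -0.44 to 0.42.

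Of 8 tested proximal tubule genes none passed and 6 had means below 0 (median -0.15), and of 3 collecting duct genes none passed (median 0.055). The fibroblast and smooth muscle list had 2 of 6 past the threshold, both higher, and a median of 0.35. Over all 947 clones tested, 3 passed as higher. The 2 in the fibroblast and smooth muscle list were Col1a1 and S100a4, named after their values were seen. Col1a1, a chain of type I collagen, had 0.53 ± 0.21, and S100a4, a calcium-binding protein of fibroblasts, 0.70 ± 0.23 (each n = 4, limma adjusted p = 0.0482 and 0.0284). Of the macrophage and lymphocyte list 1 gene was tested, with a mean of 0.24, and no podocyte or endothelial marker could be tested. Per pair, the fibroblast and smooth muscle median was 0.71 in A, 0.20 in B, -0.032 in C, -0.061 in D, 0.43 in E and 0.53 in F, over 6, 3, 4, 2, 6 and 6 genes. The proximal tubule median was -0.042, 0.020, 0.11, -0.26, -0.28 and -0.19 in the same order, over 6 to 8 genes. Beside them stand the thick limb means of -0.20, -0.23, -0.36, -0.27, -0.21 and -0.50. The part of these cell types in the thick limb values was not tested.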

How the data were processed

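The table analysed holds 1 normalized log ratio per spot and array for 18 two-colour cDNA arrays, with 4608 rows. Raw data came from ImaGene 4.1, per the labels' descriptions, which refer to a published procedure for judging spots and adjusting dim ones. The deposited log ratios have a mean of 0 on every array, medians from -0.042 to 0.029 and empty cells for 57.1% of the table. ARF-sham arrays held 1586 to 2786 values and sham-sham arrays 914 to 2232, and their number limits the precision. Scale (the log base) and direction stay unknown.

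Rows 1152 apart carry the same clone, and these 2 spots were averaged (r between duplicate spots from 0.60 to 0.904), then the 2 arrays of a pair. The labels name the rats of each pair, but nothing says how rats were paired. Of 2304 clones 1489 had 1 gene symbol, of which 1483 were matched by gene identifier to RefSeq's table for GRCr8, 32 had several and 783 none. The sham-sham columns were read with adjacent blocks of 288 rows exchanged. In the deposited order, the 5 genes' rows held at most 1 sham-sham value each, and in the exchanged order 5 or 6. Where values were present correlated with the ARF-sham arrays at -0.011 before and 0.488 after, and over clones the dye effect correlated with the sham-sham mean at 0.055 (352 clones) before and 0.499 (668 clones) after.

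Pair values were tested against 0 with limma 3.58.1 in R 4.3.3 (lmFit, eBayes), where a clone had at least 4 complete pairs, and likewise the sham-sham arrays (at least 4 values), the dye effect and the difference of sham-in-Cy3 and sham-sham arrays. Benjamini-Hochberg adjustment ran over all clones, with 0.05 as the threshold. The procedure was tested on simulated data. Levels of single rats were least-squares solutions over all 18 arrays. Named genes were the members, in the thick limb, distal tubule and pump lists those past the threshold and the 4 largest means, and the 3 named clones of highest Pearson r per member. The members and lists were chosen with earlier results of these data known. Alternatives varied the centring, spots, dye orientation, fit, minimum of pairs and the pairs and arrays included. Promoter sequences are RefSeq's for GRCr8.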

Additional observations from a re-analysis of the deposited data

Results flagged for a closer look

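On the arrays with sham in Cy5, pair F stood apart from the other pairs for Egf, at -0.67 against -0.42 in the nearest pair, a gap of 0.731 of the whole range. It was the only such case among 20 groups of values examined (5 genes in the pairs, the sham-sham arrays and each dye orientation), and chance alone gives about 1 in 20.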

How the results depend on the processing

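The thick limb minus distal convoluted tubule difference kept its sign and stayed within 1 SD of -0.41 under the 14 alternatives that can move it, from -0.46 to -0.36 with a pair left out. Centring on array medians shifts all genes alike and cannot. For ARF against sham, 9 clones passed, and the number was 16 centred on array medians, 5 centred per block of rows, 15 with the second spot alone, 28 with sham in Cy3 alone, 5 with pairs measured on 1 array kept, 42 with the pair as a replicate block over 12 arrays, 29 with a dye term added, 2 of 548 with no replicate block on 12 rat levels, 0 with limma's trend and robust options (119 at an unadjusted p under 0.05), 4 with at least 3 pairs, and 0 to 19 with a pair left out (0 without E or F, where 68 and 59 had an unadjusted p under 0.05). The within-pair correlation used by these blocked fits was 0.29, and 0.51 with the dye term. Left out in turn, the sham-sham arrays gave 0 to 32 clones against 24 (0 without R4 or R5, with 138 and 152 at an unadjusted p under 0.05) and 1 to 9 against 18 for sham-in-Cy3 against sham-sham arrays, and the pairs gave 55 to 175 against 152 for the dye effect. The sign turned for Slc12a3 with sham in Cy3 alone (-0.084), for Slc12a1 on the sham-sham arrays, which ran from -0.062 to 0.033 with an array left out, and for the dye effect of Umod, from -0.014 to 0.062. The causes of these shifts were not tested. With the sham-sham columns in their deposited row order none of the 5 genes could be tested on these arrays.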

Other observations

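Levels of single rats, estimated by least squares over all 18 arrays with no dye term, put sham rats B and D highest in Slc12a3 (1.30 and 0.91 above the mean of the 12 rats) and sham rat F lowest (-1.16). On its sham-sham arrays rat B was in channel 1 only and rats E and F in channel 2 only, so a constant dye effect and these differences between rats cannot be told apart in the levels. Since R3 had no value for Slc12a3, these arrays form a chain with no closed loop, and an error on 1 array shifts every rat beyond it. The SD over sham rats was 0.94 for Slc12a3, against 0.060 for Egf, 0.080 for Pvalb, 0.14 for Umod and 0.17 for Slc12a1. Each ARF rat was hybridised with its own sham partner alone, so its level adds nothing to the pair value.

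Arrays R1, R2, R3, R4 and R6 close a loop of sham rats A, F, B, D and E, around which the log ratios of a gene with no dye effect and no error add up to 0. The sum was -0.00074 for Egf, -0.018 for Slc12a1 and -0.10 for Umod. For Pvalb it was 0.66, against an SD of 0.44 over the 466 clones with all 5 values and a dye effect of 0.081 from the pairs.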
